A study of Mus musculus with 6 samples.

Results

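The expression of 10 lymphatic endothelial genes was examined in the lungs of Col6a1-/- mice against wildtype mice. The genes were taken by name from 49568 rows of a table of normalized counts, and all 10 had a row. They were the hyaluronan receptor gene Lyve1, the transcription factor gene Prox1, the multimerin gene Mmrn1, the receptor gene Flt4, the chemokine gene Ccl21a, the reelin gene Reln, the growth factor genes Vegfc and Vegfd, and the stabilin genes Stab1 and Stab2. Both genotypes were C57BL/6 mice aged 6 weeks per the labels, and lungs were flushed through the right ventricle before the right lobes were frozen. Each genotype gave 3 libraries, and each library held whole-lobe RNA pooled from 2 animals. The sex of the animals, and which part of the Col6a1 gene the null allele removes, were not given in the labels.

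Lymphatic vessels drain fluid and immune cells from the lung and run beside the airways and larger vessels. Their endothelium takes its identity from the homeobox factor PROX1, and it grows in response to VEGF-C and VEGF-D, which bind the receptor VEGFR-3 encoded by Flt4. Several of the 10 genes are not restricted to lymphatic cells: LYVE-1 is also carried by a class of tissue macrophages, stabilin-1 by macrophages and sinusoidal endothelium, and stabilin-2 mainly by sinusoidal endothelium. In whole-lung RNA, fewer cells of a type and less RNA per cell cannot be told apart.

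Between 28055414 and 37904878 reads were assigned to genes in each library. Col6a1, the targeted gene, had 10034.4, 10615.8 and 9343.8 normalized counts in Col6a1-/- replicates 1, 2 and 3, against 19907.2, 18393.2 and 22330.5 in wildtype replicates 1, 2 and 3, or 49.5% of wildtype (limma adjusted p 0.00643, or 0.123 without Col6a1-/- replicate 3 and 0.066 without wildtype replicate 1, fits in which no gene was called). The adjusted p of Col6a1 was 0.117 with the male share as a covariate and 0.0684 with a length and GC trend removed, both described below. The levels of 4 Y-linked genes, averaged as a percent of the highest library and called the male share here, were 72.5%, 100% and 51.1% in the Col6a1-/- pools and 0.347%, 3.35% and 51.5% in the wildtype pools. The male share was thus higher in Col6a1-/- replicates 1 and 2 than in wildtype replicates 1 and 2, and values with it as a covariate are given beside the results. All 7 fat tissue markers had higher estimates in Col6a1-/- lungs, none of them called by limma (6 higher at an unadjusted p under 0.05) or edgeR, with summed levels of 6686.4 to 10847.6 normalized counts in Col6a1-/- lungs and 2255.8 to 5826 in wildtype lungs.

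The chemokine gene Ccl21a (ENSMUSG00000094686.1, chromosome 4, 42772860 to 42773993, minus strand, GRCm38) was listed at 0 in every library of both genotypes. CCL21 guides dendritic cells and lymphocytes that carry CCR7 into lymphatic vessels. The annotation holds 4 further genes, Ccl21b, Gm10591, Gm13304 and Gm21541, with coding sequences of the same 402 bases in length, each with 2 differences from Ccl21a. Those differences were T84A and C194T in all 4 copies, counted from 1 at the first base of the start codon, with the base of Ccl21a first. The coding stretch from base 72 to base 206 shows how little tells the copies apart. It is given here in lower case with the differing bases in capitals, from the GENCODE transcripts, and the stretches of Gm10591, Gm13304 and Gm21541 were identical to that of Ccl21b.
Ccl21a: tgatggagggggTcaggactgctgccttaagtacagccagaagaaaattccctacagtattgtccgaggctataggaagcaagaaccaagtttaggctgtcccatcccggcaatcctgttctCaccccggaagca
Ccl21b: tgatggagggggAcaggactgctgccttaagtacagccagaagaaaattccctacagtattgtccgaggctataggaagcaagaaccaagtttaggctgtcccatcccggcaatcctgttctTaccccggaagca

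Of the 821 windows of 50 bases in the Ccl21a transcript, 588 (71.6%) also occurred in a transcript of another gene. The 4 copies were likewise listed at 0 in all 6 libraries. The row Ccl21c held 0.80, 1.09 and 1.00 normalized counts in Col6a1-/- replicates 1, 2 and 3, against 0, 0 and 0.968 in wildtype replicates 1, 2 and 3. A count of 0 allows up to 3 reads per library for reads that were assigned to the gene, and the sources used here do not say how reads with several equal matches were counted. The values at Ccl21a therefore allow no statement on its expression, and whether its reads were set aside as ambiguous was not tested. For the other 9 genes the share of such windows was 0% in 8 and 0.5% in Flt4.

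Of those 9 genes, Lyve1, Stab1, Stab2, Flt4 and Vegfc stood at 63.8%, 74.7%, 64.5%, 74.0% and 84.8% of the wildtype mean, with every Col6a1-/- library below every wildtype library. Vegfd, Prox1, Mmrn1 and Reln stood at 98.3%, 88.4%, 91.6% and 86.4%, and their genotypes overlapped. All 9 genes had at least 10 normalized counts in each of the 6 libraries and were tested among 16879 genes with limma on log2(normalized count + 1), adjusted by the Benjamini-Hochberg method. None of the 9 passed the threshold of an adjusted p under 0.05, where 0.0652% of all tested genes did (0.0474% lower). By edgeR on the recovered reads none was called either, beside 0.077% of genes (0.0592% lower). By DESeq2 on those reads 3 were called lower (Lyve1, Stab1 and Flt4), beside 5.06% of genes. With limma, the same 3 were called without wildtype replicate 3, where 8.26% of genes were called. Lyve1 alone was called without Col6a1-/- replicate 2, where 0.281% of genes were called. Wildtype replicate 3 was the wildtype pool with the male share of 51.5%. At an unadjusted limma p under 0.05, 5 of the 9 were lower (Lyve1, Stab1, Stab2, Flt4 and Vegfc), where 20.3% of all tested genes reached that level in either direction and 10.6% were lower. The same 5 were the genes without overlap, a pattern that 14.2% of tested genes showed in this direction. The authors' deposited table called 3 of the 9 lower (Lyve1, Stab1 and Flt4), beside 5.05% of its 14679 genes with an adjusted p in either direction and 3.18% in that direction. It rests on the same 6 libraries, and it and DESeq2 on the recovered reads each called 742 genes. Their calls are therefore not independent of each other. All 9 estimates were negative, as were 48.3% of those of all tested genes, and their median log2 fold change was -0.24 beside 0.01 over all tested genes.

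**Figure D1:**
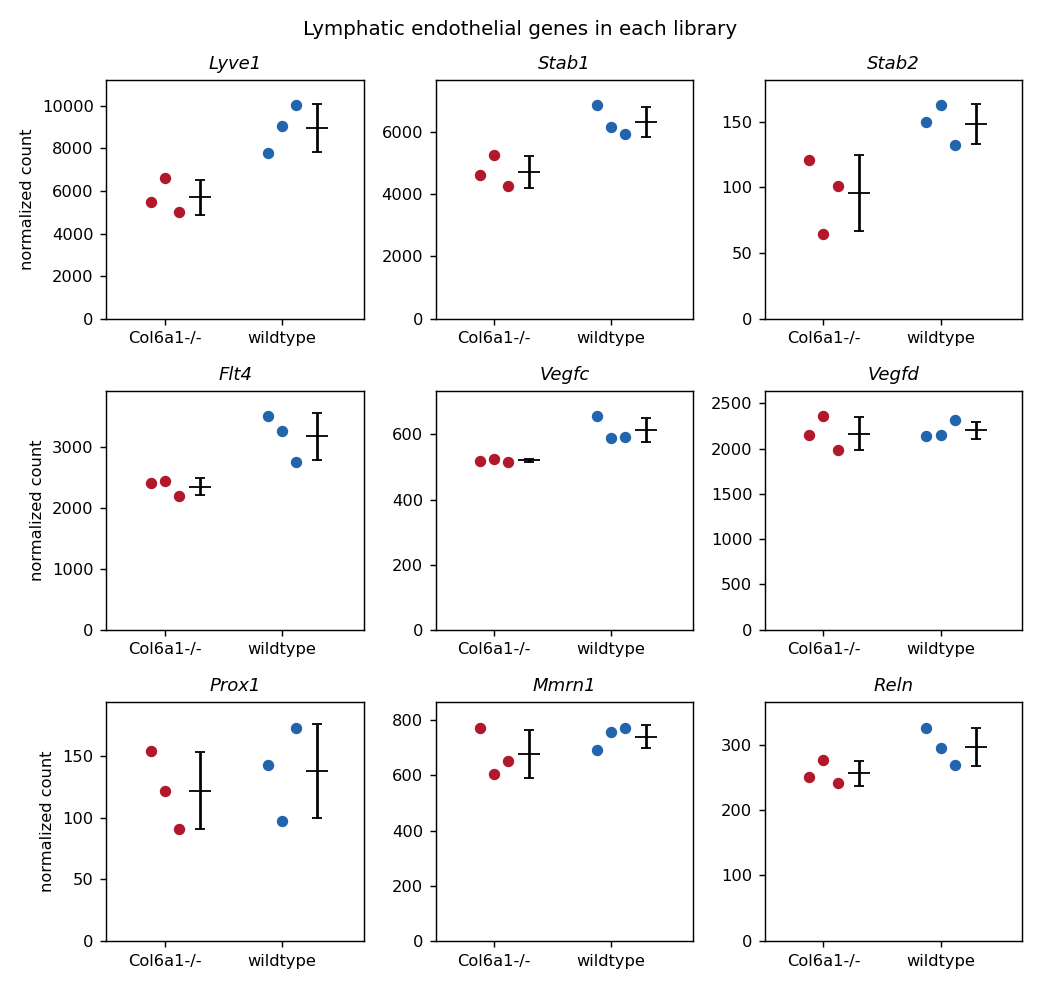
Normalized counts (vertical axes from 0) of the 9 lymphatic endothelial genes with reads, 1 point per library, with Col6a1-/- pools in red and wildtype pools in blue and the mean ± SD of 3 libraries beside them. The genotypes do not overlap for Lyve1, Stab1, Stab2, Flt4 and Vegfc, and they overlap for Vegfd, Prox1, Mmrn1 and Reln.

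Lyve1 (ENSMUSG00000030787.4, chromosome 7, 110850607 to 110863239, minus strand) encodes a cell-surface receptor for the matrix polysaccharide hyaluronan. It had 5497.9, 6611.8 and 5017.3 normalized counts in Col6a1-/- replicates 1, 2 and 3, against 7771.2, 9045.7 and 10027.2 in wildtype replicates 1, 2 and 3. Every Col6a1-/- library lay below every wildtype library, and the gap between the nearest libraries was 6611.8 against 7771.2. The mean was 5709 ± 818 in Col6a1-/- lungs and 8948 ± 1131 in wildtype lungs (SD, n = 3 pools each), or 63.8% of wildtype. The log2 fold change was -0.65 (SE 0.12, limma adjusted p 0.0786), short of the threshold, and the adjusted p was 0.0282 without Col6a1-/- replicate 2 and 0.0274 without wildtype replicate 3. In the authors' deposited table it was -0.56 with an adjusted p of 0.000304. DESeq2 on the recovered reads gave -0.65 with an adjusted p of 0.000303. The deposited fold changes of the called members, Lyve1, Stab1 and Flt4, were thus smaller in size than those refitted from the same libraries.

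The 2 stabilins are large scavenger receptors with partly shared ligands, among them hyaluronan for stabilin-2. Stab1 (ENSMUSG00000042286.13, chromosome 14, 31139013 to 31168641, minus strand) had 4617.5, 5258.1 and 4248.6 normalized counts in Col6a1-/- replicates 1, 2 and 3, against 6841.7, 6131.1 and 5936.7 in wildtype replicates 1, 2 and 3. All Col6a1-/- libraries were below all wildtype libraries, at 74.7% of the wildtype mean. Its log2 fold change was -0.42 (SE 0.10, limma adjusted p 0.095), and the adjusted p was 0.0316 when wildtype replicate 3 was left out. The authors' deposited table gave -0.38 with an adjusted p of 0.0139.

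Stab2 (ENSMUSG00000035459.18, chromosome 10, 86841198 to 87008025, minus strand) was much scarcer, at 59 to 151 reads per Col6a1-/- library and 137 to 148 per wildtype library. Normalized counts of Stab2 were 121.2, 64.5 and 101 in Col6a1-/- replicates 1, 2 and 3, against 149.5, 162.5 and 132.6 in wildtype replicates 1, 2 and 3. The genotypes did not overlap, with Col6a1-/- replicate 2 the lowest by a wide margin. The mean stood at 64.5% of wildtype, and the log2 fold change was -0.67 (SE 0.22, limma adjusted p 0.151). Without Col6a1-/- replicate 2 the log2 fold change was -0.41 (adjusted p 0.205). The authors' deposited table gave an adjusted p of 0.108. Stab2 and Col6a1 are on the same chromosome, 10.1 Mb apart.

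The promoters of both stabilins are shown. Both genes were lower without overlap, as were Lyve1, Flt4 and Vegfc. Upstream sequence came from the RefSeq table of GRCm38.p6, which held 9 of the 10 genes (not Lyve1), and it was read on the strand of the gene up to the first annotated exon. Matches to any of 5 motifs on either strand are in capitals.
Stab1 (chr14:31168642-31168891, minus strand): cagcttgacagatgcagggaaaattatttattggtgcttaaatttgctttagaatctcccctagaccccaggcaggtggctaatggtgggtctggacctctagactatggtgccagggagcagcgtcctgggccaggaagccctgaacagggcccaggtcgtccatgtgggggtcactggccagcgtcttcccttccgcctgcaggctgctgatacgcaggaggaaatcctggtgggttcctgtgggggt
Stab2 (chr10:87008026-87008192, minus strand): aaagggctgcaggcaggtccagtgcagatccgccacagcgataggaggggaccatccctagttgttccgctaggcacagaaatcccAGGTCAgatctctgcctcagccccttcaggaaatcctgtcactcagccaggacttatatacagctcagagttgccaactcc

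The motif searched for GATA factors was AGATAA, present in 10.0% of 32851 promoter windows of 250 bases. For nuclear receptors, NR2F2 among them, it was the half-site AGGTCA, present in 14% of windows, and for SOX factors it was AACAAT, present in 9.4%. For ETS factors it was CCGGAAG, present in 6.9%, and for PU.1-type ETS factors it was GAGGAAG, present in 10.6%. The last 2 motifs share the letters GGAAG. In the 250 bases before the start in the RefSeq table, Stab1 held none of them. Stab2 held AGGTCA once, from 164 to 159 bases before that start. The first GENCODE exon of Stab2 begins inside this window. Only the first 167 of its 250 bases are therefore printed above, and the RefSeq start lies beyond their end. Among the other members in the RefSeq table, Mmrn1, Ccl21a, Reln and Vegfd each held 1 match, and Flt4, Vegfc and Prox1 held none. Not all of these windows lie upstream of the gene in GENCODE. The Flt4 window begins inside an exon, and only the first 106 bases of the Vegfd window precede one. The Vegfd match (GATA, from 29 to 24 bases before the RefSeq start) lies past those bases. The Mmrn1 window (chr6:60944067-60944316) and a Prox1 window (chr1:190169516-190169765) lie inside the annotated gene. All these matches describe the letters only.

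Among the growth factors and their receptor, Flt4 and Vegfc were lower without overlap and Vegfd was not. Flt4 (ENSMUSG00000020357.3, chromosome 11, 49609263 to 49652739, plus strand) had 2414.7, 2449.2 and 2191.3 normalized counts in Col6a1-/- replicates 1, 2 and 3, against 3505, 3272.5 and 2751.5 in wildtype replicates 1, 2 and 3. Its mean was 74.0% of wildtype, with wildtype replicate 3 nearest to the Col6a1-/- libraries. The log2 fold change was -0.43 (SE 0.10, limma adjusted p 0.0967), and without wildtype replicate 3 the adjusted p was 0.012. The authors' deposited table gave -0.39 with an adjusted p of 0.0149.

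Vegfc (ENSMUSG00000031520.6, chromosome 8, 54077606 to 54187096, plus strand) encodes VEGF-C, the main lymphatic growth factor of development. It had 517.6, 525.9 and 516.8 normalized counts in Col6a1-/- replicates 1, 2 and 3, against 655.3, 590.6 and 593.5 in wildtype replicates 1, 2 and 3. The Col6a1-/- libraries lay close together, 520 ± 5.04 against 613 ± 36.6 in wildtype lungs (SD, n = 3 each). The log2 fold change was -0.24 (SE 0.10, limma adjusted p 0.215), and the authors' deposited table gave an adjusted p of 0.263.

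Vegfd (ENSMUSG00000031380.10, chromosome X, 164373378 to 164402650, plus strand), the gene of the related ligand VEGF-D, had 2153.9, 2354.1 and 1989.3 normalized counts in Col6a1-/- replicates 1, 2 and 3, against 2139.3, 2154.9 and 2312.9 in wildtype replicates 1, 2 and 3. The highest and the lowest library were both Col6a1-/- pools, so the wildtype range lay inside the Col6a1-/- range. This gave a log2 fold change of -0.03 (SE 0.09, limma adjusted p 0.898). Its sign turned positive under quantile normalization (0.002), without Col6a1-/- replicate 3 (0.03) and without wildtype replicate 3 (0.01). Per kilobase of transcript, the level of Vegfd was 4.975 ± 0.375 times that of Vegfc in Col6a1-/- lungs and 4.31 ± 0.381 times in wildtype lungs (SD, n = 3 each).

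Prox1 and Mmrn1, which of the 10 are among the most used to mark lymphatic endothelium, overlapped between the genotypes. Prox1 (ENSMUSG00000010175.13, chromosome 1, 190118035 to 190170714, minus strand) had 154.1, 121.4 and 91.0 normalized counts in Col6a1-/- replicates 1, 2 and 3, against 143.3, 97.7 and 173.3 in wildtype replicates 1, 2 and 3. The spread was wide in both genotypes, with means of 122 ± 31.6 in Col6a1-/- lungs and 138 ± 38.1 in wildtype lungs (SD, n = 3 each). The log2 fold change was -0.17 (SE 0.24, limma adjusted p 0.721), so that a change the size of that in Lyve1 lies within about 2 SE of the estimate. The sign turned without Col6a1-/- replicate 3 (0.03) and without wildtype replicate 3 (0.01).

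Mmrn1 (ENSMUSG00000054641.10, chromosome 6, 60924976 to 60989378, plus strand) encodes multimerin 1, a secreted protein of platelets and endothelium. Normalized counts of Mmrn1 were 772.8, 605.7 and 652.8 in Col6a1-/- replicates 1, 2 and 3, against 691.6, 755.3 and 770.7 in wildtype replicates 1, 2 and 3. Col6a1-/- replicate 1 was the highest of all 6 libraries and the other 2 Col6a1-/- libraries were the lowest. This gave a log2 fold change of -0.13 (SE 0.11, limma adjusted p 0.531).

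Reln (ENSMUSG00000042453.14, chromosome 5, 21884454 to 22344702, minus strand) encodes reelin, a secreted glycoprotein best known from brain development that lymphatic endothelium also makes. It had 250.4, 276.6 and 240.9 normalized counts in Col6a1-/- replicates 1, 2 and 3, against 326.1, 294.2 and 268.2 in wildtype replicates 1, 2 and 3. Col6a1-/- replicate 2 lay above wildtype replicate 3, and the mean was 86.4% of wildtype (log2 fold change -0.21, SE 0.13, limma adjusted p 0.376). With the length and GC trend removed, the log2 fold change was 0.07.

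**Figure D2:**
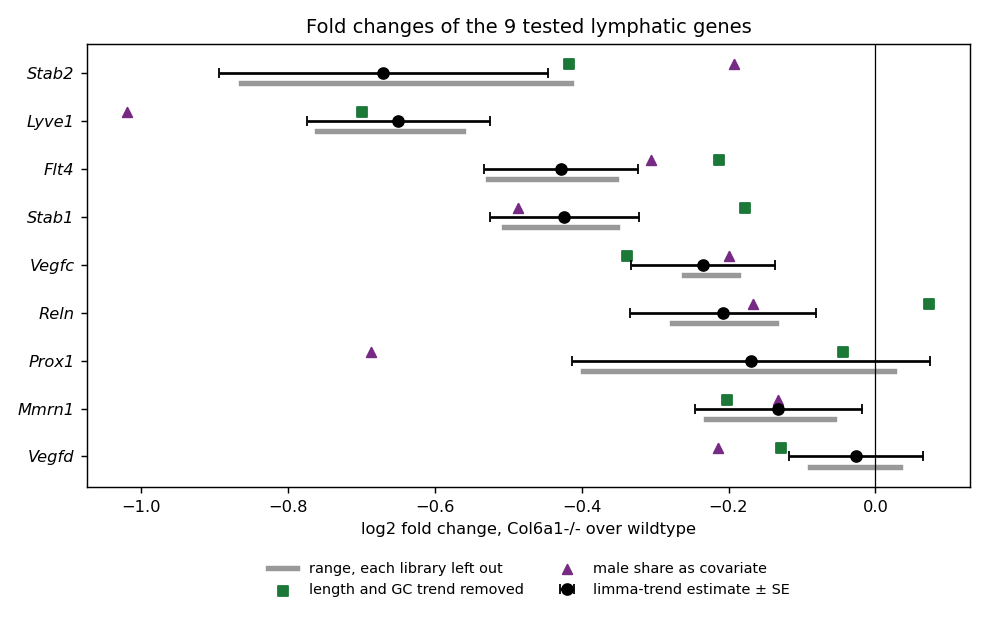
Log2 fold changes of Col6a1-/- over wildtype (horizontal axis) for the 9 tested lymphatic endothelial genes, with limma-trend estimates ± SE in black, the range over fits that leave out 1 library in grey, and estimates with the length and GC trend removed (squares) or with the male share as a covariate (triangles). Lyve1 stays between -1.02 and -0.56 in the estimates drawn, whereas Reln, Prox1 and Vegfd reach 0 or above in at least 1 of them.

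The estimates moved to different degrees between alternative fits, and the cause of these moves was not tested. As an alternative, a smooth trend of log2 levels on the length and GC content of transcripts was taken out of each library. The longest transcripts of Stab1, Flt4 and Stab2 were 7999, 6255 and 8228 bases, and that of Lyve1 was 2893 bases. After removal the log2 fold change was -0.70 for Lyve1 (adjusted p 0.0963), -0.34 for Vegfc (0.134), -0.42 for Stab2 (0.437), -0.21 for Flt4 (0.199) and -0.18 for Stab1 (0.207). With the male share as a covariate it was -1.02 for Lyve1 (adjusted p 0.141), -0.49 for Stab1 (0.614), -0.30 for Flt4 (0.675), -0.19 for Stab2 (0.888) and -0.69 for Prox1 (0.666), and limma then called no gene at all (1306 genes at an unadjusted p under 0.05).

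A pair of libraries had nearly the same male share, 51.1% in Col6a1-/- replicate 3 and 51.5% in wildtype replicate 3. Between these 2 libraries, without a test, Lyve1 stood at 5017.3 against 10027.2 normalized counts and Stab1 at 4248.6 against 5936.7. Flt4 stood at 2191.3 against 2751.5 and Prox1 at 91.0 against 173.3. In each case the Col6a1-/- pool was the lower one. For Lyve1 and Prox1 the pair was also the lowest Col6a1-/- library and the highest wildtype library. A single pair cannot separate genotype from other differences between pools, and the part of the male share in these values was not tested.

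Levels per kilobase of the longest transcript, a scale on which genes can be set beside each other, spanned more than 2 orders of magnitude. Lyve1 was the highest in both genotypes, at 1973 ± 283 normalized counts per kilobase in Col6a1-/- lungs and 3093 ± 391 in wildtype lungs (SD, n = 3 each). Vegfd followed with 1057 ± 89.2 in Col6a1-/- lungs and 1075 ± 46.9 in wildtype lungs. Stab1 had 589 ± 63.9 in Col6a1-/- lungs and 788 ± 59.6 in wildtype lungs. Flt4 had 376 ± 22.4 in Col6a1-/- lungs and 508 ± 61.7 in wildtype lungs. Its ligand gene Vegfc had 212 ± 2.06 in Col6a1-/- lungs and 250 ± 14.9 in wildtype lungs, and Mmrn1 had 151 ± 19.2 in Col6a1-/- lungs and 165 ± 9.36 in wildtype lungs. The remaining genes were about an order of magnitude lower. Reln had 21.9 ± 1.58 per kilobase in Col6a1-/- lungs and 25.3 ± 2.48 in wildtype lungs.

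Prox1 (15.4 ± 3.99 in Col6a1-/- and 17.4 ± 4.81 in wildtype lungs) and Stab2 (11.6 ± 3.49 in Col6a1-/- and 18 ± 1.82 in wildtype lungs) were the lowest. Their libraries overlapped in both genotypes, and no other neighbours in this order overlapped in either. The level of Lyve1 was on average 132.5 times that of Prox1 in Col6a1-/- lungs and 186.6 times in wildtype lungs, and Stab1 was 55.4 ± 24.7 times Stab2 in Col6a1-/- lungs and 44.0 ± 4.49 times in wildtype lungs (SD, n = 3 each).

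**Figure D3:**
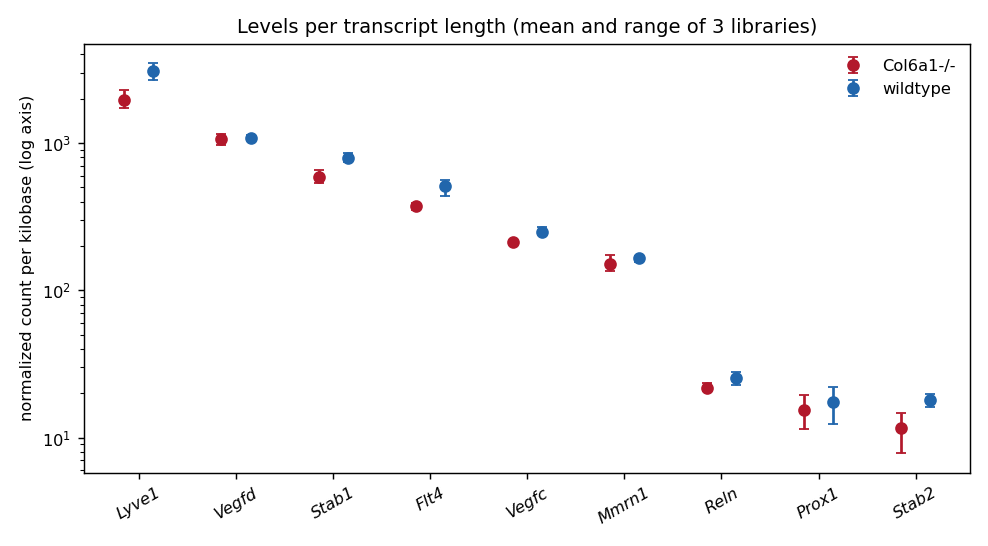
Normalized count per kilobase of the longest transcript (log axis) for the 9 lymphatic endothelial genes with reads, with Col6a1-/- in red and wildtype in blue. Points are means and bars run over the range of 3 libraries. Lyve1 is the highest at 1973 in Col6a1-/- lungs and 3093 in wildtype lungs, and Prox1 and Stab2 are the lowest and overlap.

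Other lymphatic endothelial identity genes went in both directions. Of 12 listed, 11 were tested, 6 had lower and 5 higher estimates, none was called by limma (4 at an unadjusted p under 0.05, 2 in each direction), none by edgeR, and none by the authors' deposited table. Without wildtype replicate 3, limma called 1. The median log2 fold change was -0.06. Tspan18, a tetraspanin gene, had 6362.2, 5918.6 and 5644.1 normalized counts in Col6a1-/- replicates 1, 2 and 3, against 8064, 7436.3 and 6665.8 in wildtype replicates 1, 2 and 3 (log2 fold change -0.30, limma adjusted p 0.139). Itga9, an integrin chain needed for lymphatic valves in mice, stood at 82.3% of wildtype (adjusted p 0.149). Sema3d, a semaphorin gene, stood at 127.5% of wildtype (adjusted p 0.191).

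Valve and patterning genes, which shape the collecting vessels, had 11 lower and 4 higher estimates among 15 tested, with none called by limma (3 lower at an unadjusted p under 0.05), none by edgeR, and a median of -0.12. The authors' deposited table called 1 of 14 lower, Dchs1, which encodes the protocadherin Dachsous, the partner of FAT4. Dchs1 had 1358.6, 1457.5 and 1187.6 normalized counts in Col6a1-/- replicates 1, 2 and 3, against 2037.6, 1907.9 and 2015.7 in wildtype replicates 1, 2 and 3, with a log2 fold change of -0.58 (SE 0.10, limma adjusted p 0.0693) and an adjusted p of 0.000215 in the authors' deposited table. The log2 fold change was -0.31 with the length and GC trend removed, and its limma adjusted p was 0.0301 without Col6a1-/- replicate 2 and 0.0158 without wildtype replicate 3. Fat4 stood at 79.7% (adjusted p 0.171) and the mechanically gated channel gene Piezo1 at 80.5% of wildtype (adjusted p 0.123), both without overlap.

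The processing and receptor partners of VEGF-C and VEGF-D had 9 lower and 2 higher estimates among 11 tested, a median of -0.19, and no call by limma (4 lower at an unadjusted p under 0.05), by edgeR or by the authors' deposited table. Without wildtype replicate 3, 1 gene was called by limma. Furin, a convertase that cleaves the VEGF-C precursor, stood at 82.9% of wildtype (limma adjusted p 0.14), Svep1, a large matrix protein, at 80.8% (0.168) and Adamts3, the protease that activates VEGF-C, at 70.3% (0.213). The libraries of these 3 genes did not overlap. Kdr, encoding VEGFR-2, stood at 87.6% (0.282). In the adrenomedullin and angiopoietin list 4 of 7 had lower estimates (median -0.17), with no call by any of the 3 sources (1 higher at an unadjusted limma p under 0.05), and Angpt1, the TIE2 ligand gene, stood at 124.2% of wildtype (adjusted p 0.22), and Tek, the TIE2 gene, at 88.1% (0.249). Angpt2, another TIE2 ligand gene, stood at 89.0% (0.329), and Tie1, the related receptor gene, at 89.0% (0.338).

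Of the CCL21 partners and copies, 5 of 6 entries had a row and 3 were tested. Ackr4, an atypical receptor that removes CCL19 and CCL21, had 398.8, 414.4 and 435.9 normalized counts in Col6a1-/- replicates 1, 2 and 3, against 301.2, 273.3 and 325.3 in wildtype replicates 1, 2 and 3. It stood at 138.8% of wildtype without overlap (log2 fold change 0.47, SE 0.12, limma adjusted p 0.0954, or 0.0272 without wildtype replicate 3), and the authors' deposited table called it higher with an adjusted p of 0.0303 (1.87% of its genes were called higher). Ccr7, the receptor gene, stood at 86.8% (adjusted p 0.289). The ligand gene Ccl19 was low, at 16.1 normalized counts in Col6a1-/- lungs and 15.5 in wildtype lungs on average (adjusted p 0.996). None of the 3 was called by limma (1 higher at an unadjusted p under 0.05) or edgeR, and their median was -0.005.

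The hyaluronan system, to which LYVE-1 belongs, had 9 lower and 4 higher estimates among 13 tested (median -0.16), with no call by limma (2 lower at an unadjusted p under 0.05), by edgeR or by the authors' deposited table. Cemip, which degrades hyaluronan, had 142.8, 44.8 and 121 normalized counts in Col6a1-/- replicates 1, 2 and 3, against 158.9, 157 and 243 in wildtype replicates 1, 2 and 3 (55.2% of wildtype, adjusted p 0.182), with Col6a1-/- replicate 2 far below the rest. Tmem2, the related surface protein now named Cemip2, stood at 80.9% (0.189) and Hyal1, a hyaluronidase, at 82.1% (0.281). The reelin pathway had 5 lower and 3 higher estimates among 8 (median -0.18), with no call by limma (3 lower at an unadjusted p under 0.05) or edgeR. The authors' deposited table called its adaptor Crkl lower (adjusted p 0.0143), at 75.9% of wildtype with a limma adjusted p of 0.0939 (0.0409 without wildtype replicate 3). The reelin receptor gene Lrp8 stood at 64.0% (0.15) and the kinase gene Fyn at 87.2% (0.197).

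Stabilin ligands and partners had a median of -0.03, with 6 lower and 1 higher estimates among 7, no gene at an unadjusted p under 0.05 and no call by limma, edgeR or the authors' deposited table. Their smallest unadjusted p values were those of Gulp1, Tgfbi and Gdf15, with limma adjusted p of 0.413, 0.473 and 0.478.

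**Figure D4:**
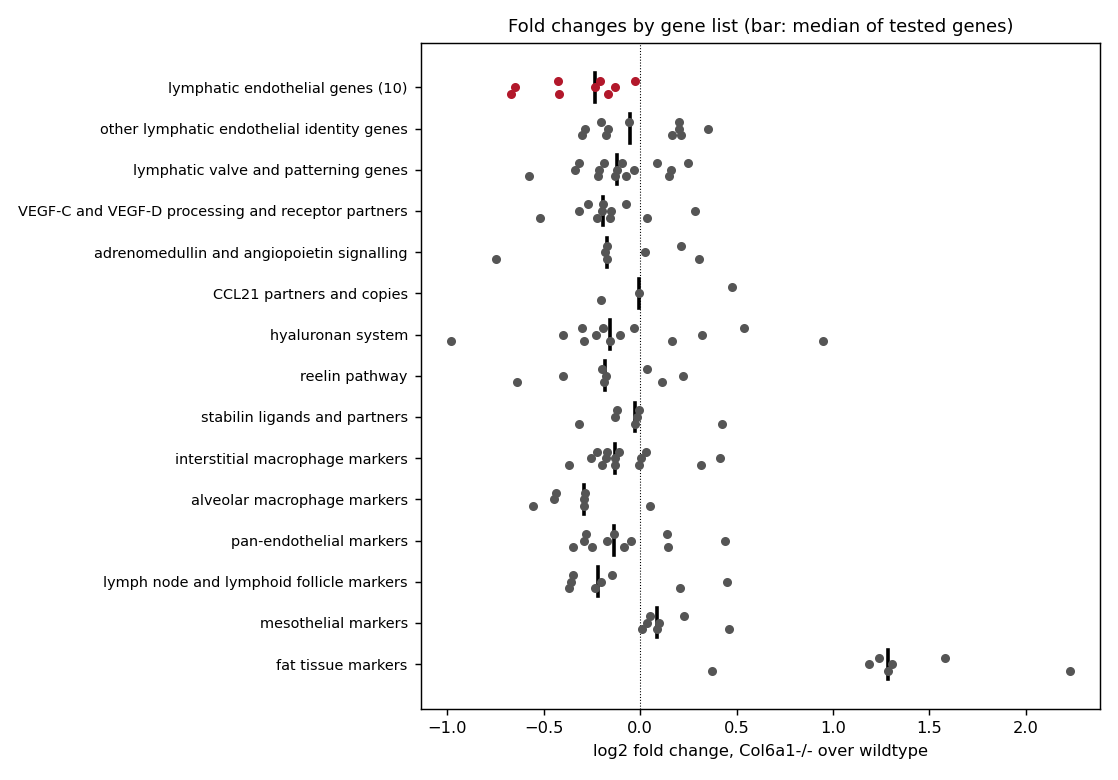
Log2 fold changes of Col6a1-/- over wildtype (horizontal axis) for the tested genes of each list, 1 point per gene, with a bar at the median. The 9 tested lymphatic endothelial genes, in red, all lie below 0 with a median of -0.24, the other lymphatic identity genes lie on both sides with a median of -0.06, and the fat tissue markers lie above 0.

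Markers of the other cell types that carry these genes were read beside them. Among 14 interstitial macrophage markers, 10 had lower estimates (median -0.13), none was called by limma (1 lower and 1 higher at an unadjusted p under 0.05), edgeR or the authors' deposited table, and none was at 0. Folr2, a marker of macrophages with LYVE-1, had 128.4, 156.4 and 157.9 normalized counts in Col6a1-/- replicates 1, 2 and 3, against 151.6, 140.5 and 139.4 in wildtype replicates 1, 2 and 3, and so overlapped. The mannose receptor gene Mrc1 stood at 86.9% of wildtype (adjusted p 0.31) and Cd163 at 86.6% (0.437), both with overlap. Adgre1, encoding F4/80, stood at 78.0% (0.149), and Pf4, a platelet factor gene also used by these macrophages, at 125.2% (0.236). The complement gene C1qc stood at 88.4% (0.276). Without Cbr2, which club cells also express and which held most of the sum, the summed level of the list (13 genes) was 24805.8 to 28687.4 in Col6a1-/- lungs and 26924.4 to 27945.3 in wildtype lungs. With Cbr2 it was 116226.6 to 196312.7 in Col6a1-/- lungs and 107082 to 122249.2 in wildtype lungs. Both sums overlap, but Gas6, a secreted ligand that other lung cells also make, held about as much of the 13-gene sum as the rest together. It had 12170.6, 16587.9 and 12842.7 normalized counts in Col6a1-/- replicates 1, 2 and 3, against 13998.1, 13732.1 and 13416.7 in wildtype replicates 1, 2 and 3. The other 12 markers summed to 12635.2, 12099.5 and 12534.8 in Col6a1-/- replicates 1, 2 and 3, against 13947.2, 13651.9 and 13507.7 in wildtype replicates 1, 2 and 3. Without Cbr2 and Gas6, every Col6a1-/- library thus lay below every wildtype library, as for Lyve1 and Stab1. Leaving out these 2 genes was chosen after their values were seen, and the part of macrophages in the values of Lyve1 and Stab1 was not tested.

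Alveolar macrophage markers were lower in 6 of 7 estimates (median -0.29), none called by limma (5 lower at an unadjusted p under 0.05) or edgeR and 3 called lower in the authors' deposited table: Itgax at 73.2%, Krt79 at 68.6% and Marco at 73.9% of wildtype. Without wildtype replicate 3, limma called Itgax (adjusted p 0.0119) and Krt79 (0.0444). Their summed level was 13361.3 to 15940.6 in Col6a1-/- lungs and 16924.3 to 18978.3 in wildtype lungs.

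Pan-endothelial markers had 8 lower and 3 higher estimates among 11 (median -0.14), with summed levels of 134483.6 to 135577.9 in Col6a1-/- lungs and 145564.3 to 163462.4 in wildtype lungs. None was called by limma (4 lower and 1 higher at an unadjusted p under 0.05) or edgeR. The authors' deposited table called Pecam1 (81.5% of wildtype, adjusted p 0.0445) and Cdh5 (78.6%, 0.0287) lower and Sox17, an arterial transcription factor gene, higher (135.6%, 0.00377), and limma also called Sox17 without wildtype replicate 3 (adjusted p 0.0113). The summed level of this list was thus lower in every Col6a1-/- library, as were Flt4, Stab1 and Lyve1. Its largest entries were Pecam1, Cdh5 and Eng, with means of 28387, 33640 and 23312 in Col6a1-/- lungs and 34823, 42773 and 28405 in wildtype lungs. Cldn5 and Egfl7, the next largest, stood at 97.1% and 110.2% of wildtype, both with overlap. The sum thus mostly follows its largest entries, and the part of endothelial cells in the values of Flt4, Stab1 and Lyve1 was not tested.

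Lymph node and lymphoid follicle markers had 6 lower and 2 higher estimates among 8 tested of 10 (median -0.22), with Glycam1 and Madcam1, which mark high endothelial venules, at 0 in all libraries. Their summed level was 2981.7 to 3427.8 in Col6a1-/- lungs and 3667.4 to 4098 in wildtype lungs. None was called by limma (2 lower at an unadjusted p under 0.05), edgeR or the authors' deposited table. Fcer2a, the gene of a low-affinity IgE receptor of B cells, stood at 78.5% of wildtype (limma adjusted p 0.141). Without wildtype replicate 3, limma called 1 gene of the list. All 7 mesothelial markers had higher estimates (median 0.09), with sums of 12665.7 to 14620.9 in Col6a1-/- lungs and 11098.9 to 13285.7 in wildtype lungs. None was called by limma (1 higher at an unadjusted p under 0.05) or edgeR, and the authors' deposited table called Gpm6a higher, at 138.2% of wildtype (adjusted p 0.0219). Without wildtype replicate 3, limma called it too (adjusted p 0.0299). Of the 7 fat tissue markers (median 1.29), limma called 4 without wildtype replicate 3 and 2 without a filter on low values, against 0 with all libraries and the filter. The authors' deposited table called 1 higher, the adipokine gene Retn.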

How the data were processed

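RNA of perfused right lung lobes was measured in 6 libraries, 3 per genotype. The deposited signal is a normalized count, made by the authors as reads divided by 1 size factor per library. In the authors' deposited comparison, a mean and a test statistic (each a score) stand beside a log2 fold change, and beside an unadjusted and an adjusted p-value. Tools named, without roles, in the submitters' processing notes are STAR 2.5.2b, Trimmomatic 0.36, featureCounts, Subread 1.5.0p3, DESeq2 1.16.1 and R 3.4.1, with build GRCm38.p5. No source used here gives the strand setting or annotation release, so antisense reads cannot be told apart.

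Reads were recovered by undoing the size factors of 0.911 to 1.25; for Col6a1-/- replicate 3 the factor of 1.0003 leaves the step too close to 1 to test. Genes with at least 10 normalized counts in at least 3 libraries were tested with limma-trend (limma 3.58.1, R 4.3.3), pseudocount 1, two-sided, with Benjamini-Hochberg adjustment over 16879 genes and a threshold of 0.05. Fold changes on that scale understate low genes. Alternatives were other pseudocounts and filters, median centring, quantile normalization, library quality weights, edgeR 4.0.16, DESeq2 1.42.0, a replicate block, the male share, removal of a length and GC trend (splines with 5 degrees of freedom, 16435 genes), and each library left out. Same-genotype libraries differed beyond counting noise (chi-square per degree of freedom 4.69 to 41.1), and p-values measure the spread between pools of 2 animals.

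Named genes are the members, Col6a1, and, in each list, called genes and up to 3 with the smallest unadjusted p. Kdr, Tie1, Folr2, Mrc1, Cd163, Cbr2 and Gas6 were added for their role after their values were seen. Eng, Egfl7 and Cldn5 were likewise added after their values were seen, as large entries of their list. The values of 1 gene that this rule names are not reported here. Cemip2 was read as Tmem2. Positions and transcripts come from GENCODE M21 (GRCm38), matched by symbol for 95.3% of rows. The members and lists were chosen with earlier results of these data known.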

Additional observations from a re-analysis of the deposited data

How the results depend on the processing

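No member was called under the other pseudocounts, the filter at 50, median centring, quantile normalization, edgeR, the replicate block, the male share or the length and GC trend. The number called was 1 without a filter (Lyve1, where 0.327% of genes were called) and 3 with DESeq2 (Lyve1, Flt4 and Stab1, beside 5.06%). With library quality weights it was 4 (those 3 and Stab2, where 19.1% of genes were called). The number ran from 0 to 3 when a library was left out. It was 3 without wildtype replicate 3 (Lyve1, Flt4 and Stab1, beside 8.26% of genes) and 1 without Col6a1-/- replicate 2 (Lyve1, beside 0.281%). It was 0 in the other 4 such fits. The median log2 fold change of the 9 tested members ran from -0.398 (without wildtype replicate 2) to -0.187 (without wildtype replicate 1) in those fits, with -0.352 without Col6a1-/- replicate 1, and from -0.277 to -0.202 in the other alternatives. The cause of these differences was not tested.

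Lyve1, Flt4, Stab1, Stab2, Vegfc and Mmrn1 had negative estimates in all 18 alternatives, with adjusted p from 0.000303 to 0.342 for Lyve1. The sign turned for Vegfd under quantile normalization (0.002) and when a library was left out (estimates of -0.089 to 0.033), for Reln with the length and GC trend removed (0.073), and for Prox1 when a library was left out (-0.398 to 0.025). Depth limits Stab2 (59 to 151 reads per library) and Prox1 (89 to 192) most. The deviations of same-numbered pools correlated at -0.136, 0.106 and -0.006, within the -0.152 to 0.2 of pools with different numbers. No pairing by pool number was thus seen, but with 3 pools per genotype these values cannot exclude it. With the replicate block 1 gene was called higher and 6 lower, against 3 higher and 8 lower without it, and no member was called. Over all tested genes, limma called 3 higher and 23 lower with median centring, 32 and 61 without a filter, 3 and 4 with the filter at 50, 2 and 2 with the length and GC trend removed, 1669 and 1556 with library quality weights, and 0 with the male share, while DESeq2 called 275 and 467. When a library was left out, limma called 0 genes in 2 fits (without Col6a1-/- replicate 3, with 1979 genes at an unadjusted p under 0.05, and without wildtype replicate 1, with 1902) and up to 886 higher and 497 lower without wildtype replicate 3. With library quality weights, limma called 1 to 6 genes in each list described beside the members, the most in the fat tissue (6) and pan-endothelial (5) lists.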

Other observations

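The genes whose levels followed those of a lymphatic endothelial gene most closely across the 6 libraries were looked up among 12991 tested genes with a mean of at least 100 normalized counts. For Prox1 they were Gli3, Mettl2 and Yap1, with Pearson's r of 0.977, 0.970 and 0.966 on the log2 scale. For Lyve1 they were Slc7a6, Loxl3 and Fbxl22, with 0.995, 0.990 and 0.985. None of these 6 genes was called by limma (adjusted p of 0.25 to 0.956). Each r is taken over the same 6 libraries, which differ in genotype, depth and male share, and these values are a description without a test.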
